A study of Mus musculus with 4 samples.

Results

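EGR and AP-1 transcription factors were followed here through 10 genes, Egr1, Egr2, Egr3, Fos, Fosb, Fosl1, Fosl2, Jun, Junb and Jund, out of 18194 genes with an annotated symbol. All probe sets whose annotated symbol is one of these genes were taken, which gave 16 probe sets of the 45101 on the array. A probe set is a group of short probes for 1 transcript. The samples were RAW264.7 cells, an established mouse macrophage line, with 1 Affymetrix array for each of 4 conditions. NC cells were kept in normoxia without IL6, and NC+IL6 cells in normoxia with IL6 at 25 ng/ml. HC cells were kept in 1% oxygen without IL6, and HC+IL6 cells in 1% oxygen with the same dose. Every culture was held in its condition for 4 days, and no source used here gives the oxygen level of normoxia. The study asked how low oxygen and the STAT3-activating cytokine IL6 shape the activation state of macrophages and what ERK kinase signaling contributes.

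EGR proteins are zinc finger factors that bind GC-rich sites, and AP-1 is a dimer of a JUN protein with a FOS protein or another leucine zipper partner. Most of these genes are immediate-early genes, which serum, cytokines and stress switch on through ERK, JNK and p38 kinases without new protein synthesis, and serum response factor at CArG boxes is the best known link from ERK to the Egr and Fos genes. In macrophages these factors act in differentiation and in the control of inflammatory genes, and Egr2 is also known as a gene of alternative activation.

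The promoters are shown for 3 genes, because each holds a motif linked to these factors and each gene was above background. RefSeq promoter windows of mouse build GRCm38.p6, from 250 bases before to 50 bases after an annotated start, were at hand for 7 of the 10 genes, in 11 windows. Egr1, Egr3 and Fosl1 had no window among those used here. The Egr2 window lies at chr10:67537619-67537918 on the plus strand, the Fosl2 window at chr5:32136222-32136521 on the plus strand and the Jun window at chr4:95052173-95052472 on the minus strand. Capitals mark a CArG box in Egr2, the EGR motif GCGNGGGCG in Fosl2 and the AP-1 related motif TGACATCA in Jun.
Egr2: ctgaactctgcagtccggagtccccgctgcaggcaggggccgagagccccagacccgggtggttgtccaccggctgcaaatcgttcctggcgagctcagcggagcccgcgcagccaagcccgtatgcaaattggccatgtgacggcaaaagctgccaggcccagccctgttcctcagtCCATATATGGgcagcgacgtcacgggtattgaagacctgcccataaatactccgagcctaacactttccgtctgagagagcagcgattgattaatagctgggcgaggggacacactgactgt
Fosl2: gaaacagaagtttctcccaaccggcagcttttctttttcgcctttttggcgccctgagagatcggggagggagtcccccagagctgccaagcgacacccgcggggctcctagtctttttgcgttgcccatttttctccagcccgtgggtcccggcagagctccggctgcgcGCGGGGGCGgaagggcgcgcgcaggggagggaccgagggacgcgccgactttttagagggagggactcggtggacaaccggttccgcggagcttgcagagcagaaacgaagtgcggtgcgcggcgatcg
Jun: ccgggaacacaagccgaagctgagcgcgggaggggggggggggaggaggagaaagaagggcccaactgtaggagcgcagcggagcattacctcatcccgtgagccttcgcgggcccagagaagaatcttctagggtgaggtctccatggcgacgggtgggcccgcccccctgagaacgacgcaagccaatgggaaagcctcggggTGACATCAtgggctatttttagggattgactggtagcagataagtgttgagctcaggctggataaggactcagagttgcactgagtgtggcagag
The CArG box, the binding motif of serum response factor, was present in 4 of the 5 Egr2 windows and in none of the windows of the other 6 genes. The printed box, CCATATATGG, begins at -72 from the annotated start and is shared by 3 overlapping windows, and the fourth window holds a second box. Of all 32851 mouse windows of this length, 1.63% held one. The EGR motif was present in the windows of Fosl2 and Fosb, against 5.55% of all windows, and TGACATCA in that of Jun, against 3.62%. The core hypoxia response element ACGTG was present in the Jund window and in 1 of the 5 Egr2 windows, not the printed one, against 19.6% of all windows. The GC box GGGCGG can overlap the EGR motif. It was present in at least 1 window of 5 of the 7 genes, against 38.2% of all 27025 genes with windows. For Egr2 it was in 2 of 5 windows and not the printed one, against 35.7% of all windows. The GC content of the 11 windows ran from 46.7% (Jund) to 72.0% (an Egr2 window), against a median of 52.7% over all windows. The part of GC content in these matches was not tested. The AP-1 motif TGANTCA, the CRE motif TGACGTCA and the STAT motif TTCNNNGAA were present in none of the 11 windows, against 7.81%, 1.79% and 8.30% of all windows. Both strands were searched, a match is a description of these letters and not of binding, and the absence of a match says only that these letters are not in this window.

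The values are log2 signals deposited by the authors, so a difference of 1.0 is a 2-fold difference. For each array, 113 probe sets of genes chosen as restricted to other tissues served as background, and their 95th percentile was taken as its floor. NC had a floor of 7.20 on the log2 scale, NC+IL6 of 7.46, HC of 7.23 and HC+IL6 of 7.33, and 33.7%, 31.7%, 35.7% and 34.7% of all probe sets exceeded it. A gene is represented by its brightest probe set, and is called higher or lower if its brighter array lay above the floor and the ratio of the arrays reached 2-fold, after any signal under its floor had been raised to it. A fold set against a floor is given as at least that size. Since each condition has a single array, no difference could be tested against replicates and p-values are left out, so the precision is limited by the number of arrays. As the nearest measure of error, the pooled SD of a log2 ratio between probe sets of the same gene was 0.32 for HC and NC, 0.30 for HC+IL6 and NC+IL6, 0.25 for NC+IL6 and NC and 0.29 for HC+IL6 and HC. This SD shows how far probe sets disagree and says nothing of the variation among cultures. All 10 macrophage markers were above the floor on all 4 arrays, while none of the 18 measured markers of T cells, B cells, fibroblasts, endothelium and epithelium was, and of 4 neutrophil markers S100a8 alone was above it, in HC+IL6. Over all probe sets, the log2 signal had a median of 5.64 (NC), 5.55 (NC+IL6), 5.90 (HC) and 5.86 (HC+IL6). The 3' over 5' signal of Actb, which measures RNA integrity, was 1.54, 1.41, 1.73 and 1.62 on the same arrays. That of Gapdh was 0.93, 0.93, 0.87 and 0.88. The median signal and the Actb ratio were thus higher in hypoxia, while the Gapdh ratio was lower. The part of these ratios in the results was not tested.

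EGR genes had higher signals in HC than NC macrophages. Egr1 (probe set 1417065_at), a zinc finger factor induced by growth factors and stress, had log2 signals of 10.37 (NC), 12.42 (NC+IL6), 13.00 (HC) and 12.72 (HC+IL6). NC was the lowest array by 2.05, and the steps of 0.28 and 0.29 between neighbours among the other 3 arrays were each smaller than the SD between probe sets. Egr1 was thus 6.17-fold higher in HC than NC and 4.15-fold higher in NC+IL6 than NC. In HC+IL6 it was 5.08-fold higher than NC and 1.22-fold higher than NC+IL6. In RNA from a whole culture, a different share of expressing cells and a different amount of RNA per cell cannot be told apart.

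Egr2, which is needed for Schwann cell myelination and is induced during macrophage differentiation, was measured by 2 probe sets. The brighter one (1427683_at) had log2 signals of 6.79 (NC, under the floor), 8.25 (NC+IL6), 9.34 (HC) and 8.80 (HC+IL6). The dimmer one (1427682_a_at) had 5.88 (NC, also under the floor), 7.74 (NC+IL6), 9.20 (HC) and 8.83 (HC+IL6). Both gave the same order, with HC highest and NC lowest, and each step between neighbours was larger than the SD between probe sets. By the brighter probe set, Egr2 in HC exceeded NC at least 4.39-fold, and by the dimmer one at least 4.00-fold. In NC+IL6 it was at least 2.07-fold and at least 1.46-fold higher than NC. With IL6 on both arrays, the hypoxic one was 1.46-fold higher by the brighter and 2.12-fold higher by the dimmer probe set, so that only the dimmer one passed 2-fold. Its promoter, with the CArG box, is printed above.

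Egr3 (1436329_at), a relative of Egr1 best known from muscle spindles and lymphocytes, had log2 signals of 7.81 (NC), 7.57 (NC+IL6), 10.14 (HC) and 8.21 (HC+IL6). HC stood above all others, and the gap of 0.24 between NC and NC+IL6 was within the SD. Egr3 was 5.03-fold higher in HC than NC, and 3.81-fold lower in HC+IL6 than HC. A second Egr3 probe set was under the floor on all 4 arrays, at log2 signals of 7.05, 6.89, 6.88 and 6.71 in the order NC, NC+IL6, HC and HC+IL6, and did not show this difference. With both probe sets averaged, the log2 ratio was 1.08 for HC over NC and -1.05 for HC+IL6 over HC.

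**Figure D1:**
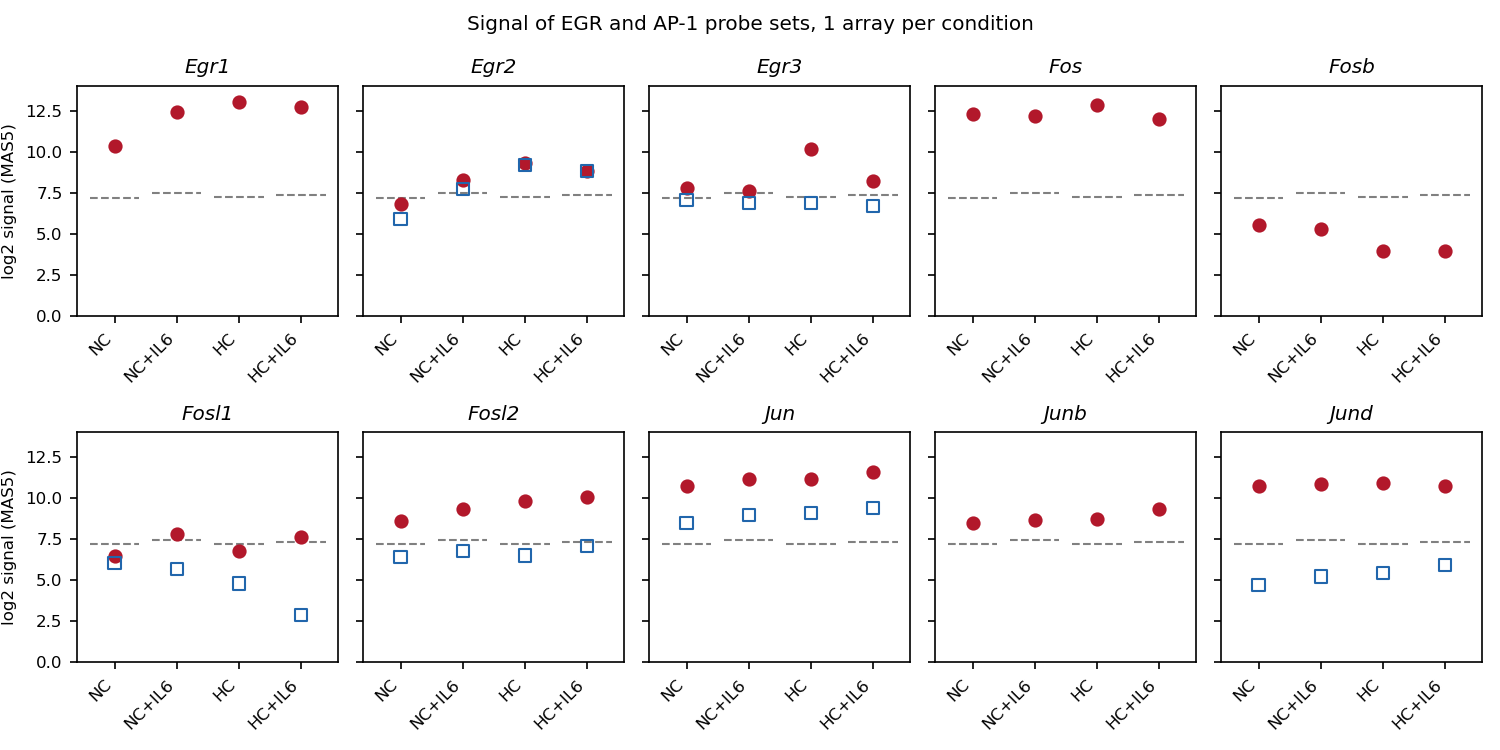
Log2 signal (y axis) of every probe set of the 10 genes on the 4 arrays (x axis), 1 array per condition, with red circles for the brightest probe set of a gene, open blue squares for the other one and grey dashes for the background floor of each array. By the brightest probe set, Egr1, Egr2 and Egr3 were highest in HC, Egr1 by a step within the SD between probe sets. Fosb lay under the floor on all arrays.

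FOS genes differed from each other. Fos (1423100_at), the founding FOS gene, had log2 signals of 12.31 (NC), 12.14 (NC+IL6), 12.84 (HC) and 12.00 (HC+IL6). HC was the highest, by 0.53 over NC, and the other 3 arrays lay in an order whose steps were within the SD. Fos was 1.78-fold lower in HC+IL6 than HC, under the 2-fold limit. Fosb (1422134_at), which encodes a FOS protein and a shorter splice form known from neurons, was under the floor on every array, at 5.53, 5.28, 3.95 and 3.93 in NC, NC+IL6, HC and HC+IL6, and no fold is given.

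Fosl1 (1417487_at), which encodes the FOS-related protein FRA-1, was above the floor only with IL6. Its log2 signals were 6.48 in NC and 6.79 in HC, both under the floor, against 7.81 in NC+IL6 and 7.65 in HC+IL6. The ratio to the array without IL6 was at least 1.53-fold in normoxia and at least 1.34-fold in hypoxia, so Fosl1 was not called. With the floor at the 90th percentile or with no floor, its log2 ratio of NC+IL6 to NC was 1.32 or 1.33 and passed 2-fold. Its other probe set was under the floor on all arrays, at 6.03, 5.71, 4.80 and 2.90 in NC, NC+IL6, HC and HC+IL6.

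Fosl2 (1437247_at), which encodes FRA-2, had log2 signals of 8.63 (NC), 9.37 (NC+IL6), 9.82 (HC) and 10.05 (HC+IL6). The arrays thus stood in the order NC, NC+IL6, HC and HC+IL6, and only the last step of 0.23 was within the SD. Fosl2 was 2.29-fold higher in HC than NC and 2.67-fold higher in HC+IL6 than NC, while it was 1.67-fold higher in NC+IL6 than NC and 1.60-fold higher in HC+IL6 than NC+IL6, both under the limit. A second Fosl2 probe set was under the floor on all arrays, at 6.43, 6.76, 6.51 and 7.08, and when both were averaged the log2 ratio of HC to NC was 0.64 and under 2-fold.

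JUN genes passed 2-fold in none of the comparisons. Jun (1417409_at), the main partner of FOS proteins, had log2 signals of 10.77 (NC), 11.14 (NC+IL6), 11.16 (HC) and 11.60 (HC+IL6). Its second probe set (1448694_at) had 8.49, 9.0, 9.11 and 9.38 on the same arrays. Both were lowest in NC and highest in HC+IL6, where Jun was 1.78-fold and 1.85-fold higher than NC. Junb (1415899_at), which encodes a JUN protein with weaker transforming activity than JUN, had 8.47, 8.64, 8.71 and 9.35 in NC, NC+IL6, HC and HC+IL6. HC+IL6 stood apart here, 1.64-fold higher than NC+IL6 and 1.56-fold higher than HC. Jund (1449117_at), the JUN gene with the steadiest expression in most cells, had 10.74, 10.84, 10.93 and 10.73 with no gap beyond the SD, and a second probe set under the floor, at 4.71, 5.22, 5.44 and 5.93.

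Counted over the 10 genes, 8 were above the floor in HC or NC, and 4 of them were called higher (Egr1, Egr2, Egr3 and Fosl2) and 0 lower, where 3.22% of all 8812 genes above the floor were called higher and 1.06% lower. The median log2 ratio of the 8 was 0.86, against 0.04 over all genes. In HC+IL6 compared with NC+IL6, 0 of 9 genes were called, against 2.31% called higher and 1.33% called lower over all genes, and the median was 0.47 against 0.01. In NC+IL6 compared with NC, 2 of 9 were higher (Egr1 and Egr2) and 0 lower, against 3.27% and 0.898% over all genes, with a median of 0.37 against -0.03. Egr2 was no longer called there when its probe sets were averaged or when a background signal was added to every signal. In HC+IL6 compared with HC, 1 of 9 was lower (Egr3) and 0 were higher, against 1.66% lower and 2.23% higher, with a median of -0.20 against -0.03. Compared with NC, HC+IL6 had 3 of 9 higher (Egr1, Egr2 and Fosl2), and 0 lower, against 5.08% and 1.63%, with a median of 0.83 against -0.01. Several of these comparisons share an array, so their counts are not independent. Of all calls over all genes, 75.3% were higher in HC compared with NC, and this share was 58.6% after quantile normalization and 61.6% after cyclic loess. For HC+IL6 compared with NC+IL6 it was 63.5%, 51.8% and 51.3%. The log2 ratio of Egr1 in HC over NC stayed between 2.61 and 2.69 under all processing alternatives.

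**Figure D2:**
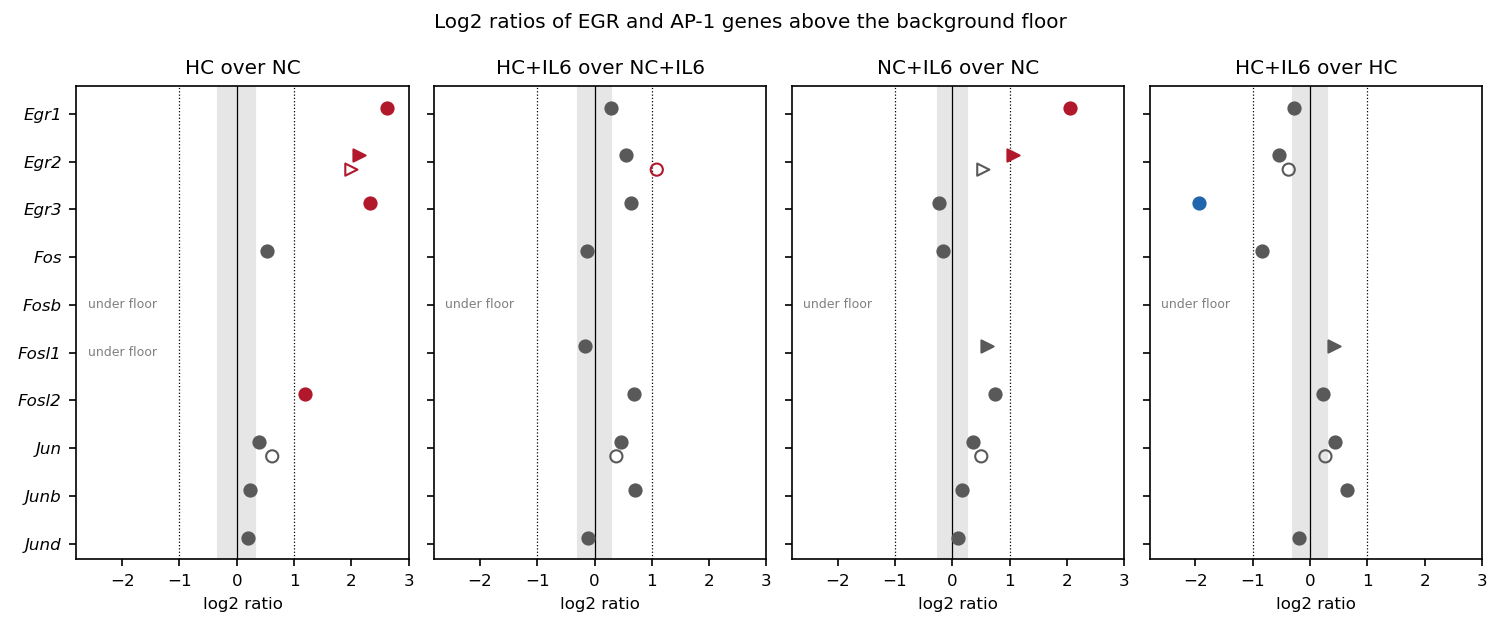
Log2 ratio (x axis) of each gene (y axis) in 4 comparisons of 1 array each, with dimmer signals raised to the floor. Filled symbols are the brightest probe set and open symbols the other one if above the floor, triangles are lower bounds, red is called higher and blue is called lower, the grey band is the pooled SD between probe sets and dotted lines mark 2-fold. Egr1, Egr2, Egr3 and Fosl2 lie beyond 2-fold in HC over NC, and Egr3 lies beyond it at -1.93 in HC+IL6 over HC.

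The hypoxia ratios of the EGR genes were smaller with IL6 than without. The log2 ratio of HC to NC was subtracted from that of HC+IL6 to NC+IL6, a difference that uses all 4 arrays and was not tested for want of replicates. For Egr1 it was -2.33, from 2.62 without to 0.29 with IL6, at rank 2 from the lowest among 7879 genes above the floor on all 4 arrays. For Egr3 it was -1.69, from 2.33 to 0.64, at rank 12, but -0.85 with its probe sets averaged, since the second probe set, under the floor, had a difference of -0.01. Over all these genes the difference had a median of 0.00 and an SD of 0.36, and 1.24% of them were at -1.0 or lower. Egr2 was under the floor in NC and has no rank, with differences of -2.00 and -2.23 by its brighter and dimmer probe sets, or -1.59 and -0.91 when values under a floor were raised to it. The AP-1 genes differed less. Fos had -0.67 at rank 327 and Fosl2 had -0.51 at rank 586, while Jund had -0.30, Jun 0.07 and Junb 0.47, the last at rank 7410. Of the 284 genes called higher in HC compared with NC, 91, or 32.0%, were also called higher in HC+IL6 compared with NC+IL6, and none of the 4 described above was among them by its brightest probe set.

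**Figure D3:**
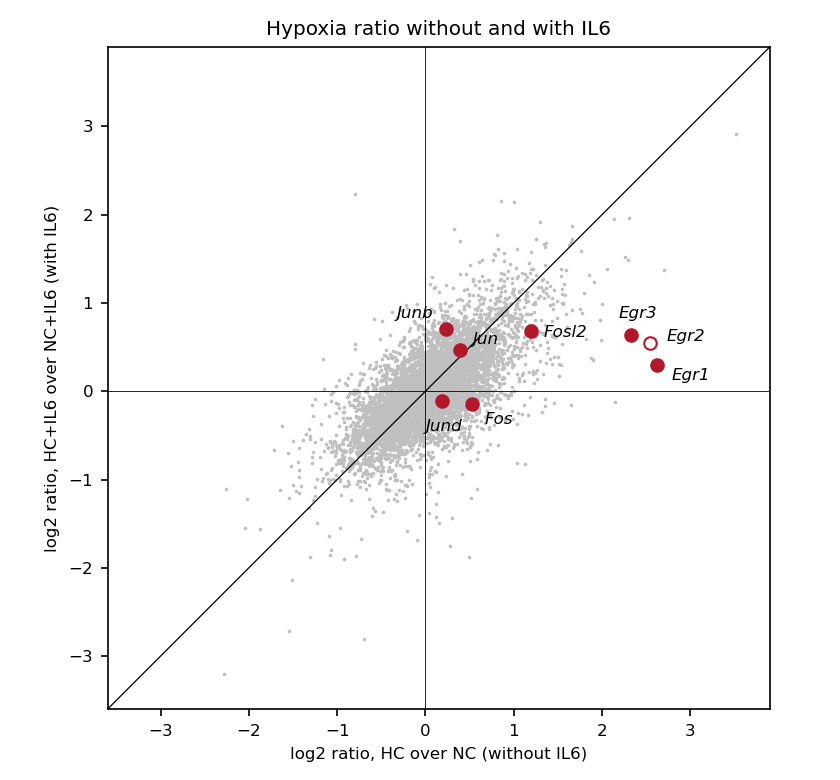
Log2 ratio of HC to NC (x axis) against that of HC+IL6 to NC+IL6 (y axis) for 7879 genes above the floor on all 4 arrays (grey) and the EGR and AP-1 genes (red, by the brightest probe set), with a line at equal ratios. Egr2, an open circle, was under the floor in NC and is plotted at its measured signal, and Egr1, Egr2 and Egr3 lie far to the right of the line.

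The same contrast can be read from the side of IL6. The log2 ratio of NC+IL6 to NC was 2.05 for Egr1 and that of HC+IL6 to HC was -0.28, within the SD. For Egr2 these were 1.46 and -0.54 by the brighter probe set and 1.86 and -0.37 by the dimmer one, at measured signals. For Egr3 they were -0.24 and -1.93, and for Fos -0.17 and -0.84. In contrast, Junb had 0.17 and 0.65, Jun 0.37 and 0.44, and Fosl2 0.74 and 0.23. Of these ratios of HC+IL6 to HC, that of Egr3 alone reached 2-fold.

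Of the other genes of the EGR system, Nab1 and Nab2, which encode corepressors of EGR proteins and are known EGR targets in the case of Nab2, were above the floor and were not called in the 4 main comparisons. Nab2 had log2 signals of 7.53 (NC), 8.29 (NC+IL6), 8.04 (HC) and 8.69 (HC+IL6), the last 2.23-fold higher than NC, a call that was lost after quantile normalization. Egr4 and Wt1 were under the floor on all arrays. Among serum response factor and its ternary complex partners, 3 of 4 measured genes were above the floor and 0 were called in each of the 4 comparisons. Among 14 measured leucine zipper partners of AP-1, 8 were above the floor in HC or NC and 0 were called. Over all genes above the floor, 4.28% were called in that comparison and 3.64% to 4.17% in the other main comparisons. Counts of 0 in lists this short lie near these shares. Jdp2, which encodes a repressor that dimerizes with JUN, had log2 signals of 10.33 (NC), 10.87 (NC+IL6), 10.25 (HC) and 9.46 (HC+IL6), and was 2.65-fold lower in HC+IL6 than NC+IL6. It was the only one of 10 called in that comparison, where 1.33% of all genes were called lower. With its probe sets averaged, the log2 ratio of Jdp2 was -0.36 and under 2-fold.

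None of the measured kinase cascade genes upstream of EGR and AP-1 was called at the level of RNA in the 4 main comparisons. Of 11 measured genes of the ERK cascade, 10 were above the floor, and 0 were called in each of the 4 comparisons, with medians of 0.07, 0.07, 0.07 and 0.20 for HC over NC, HC+IL6 over NC+IL6, NC+IL6 over NC and HC+IL6 over HC. Of 13 measured genes of the JNK and p38 cascade, 10 were above it and 0 were called, with medians of -0.18, -0.19, -0.06 and -0.11 in the same order. Over all genes above the floor, 4.28%, 3.64%, 4.17% and 3.89% were called in either direction in these comparisons. Counts of 0 in lists this short lie near these shares. Log2 ratios in the ERK cascade ran from -0.39 to 0.96 in HC over NC. In HC+IL6 over NC+IL6 they ran from -0.45 to 0.97, so the highest came just under the 2-fold limit. Of the 11 MAPK genes that the study lists for its arrays, 10 were measured, and only Map2k5, an upstream kinase of ERK5, and Spred1, an inhibitor of the path from RAS to ERK, were above the floor. Neither was called, with log2 ratios of HC to NC of -0.04 and 0.27. Arrays measure RNA and not the phosphorylation of kinases. This list was chosen by the study on these arrays and is not independent evidence.

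Of the 15 other immediate-early genes above the floor in HC or NC, 4 were called higher in HC (Ier3, Klf2, Btg2 and Dusp1). In this list 0 were called lower and 11 were not called, where 3.22% of all genes were called higher. Among the 11, Myc had 5.31 in NC, under the floor, and 7.35 in HC, at least 1.11-fold higher. The median log2 ratio of the 15 was 0.67, against 0.04 over all genes. Ier3, a regulator of cell survival, had log2 signals of 10.82 (NC), 13.22 (NC+IL6), 12.15 (HC) and 13.41 (HC+IL6), and was 2.51-fold higher in HC than NC. Klf2, a Kruppel-like factor that restrains macrophage activation, had 7.05 (NC, under the floor), 8.77 (NC+IL6), 8.61 (HC) and 9.20 (HC+IL6), and was at least 2.66-fold higher in HC than NC. Both genes were higher with IL6 in normoxia, 5.28-fold for Ier3 and at least 2.96-fold for Klf2.

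Btg2, an antiproliferative gene, had log2 signals of 9.45 (NC), 8.83 (NC+IL6), 10.84 (HC) and 9.33 (HC+IL6), and like Egr3 it was highest in HC and lower in HC+IL6, by 2.85-fold. With its probe sets averaged, the log2 ratio of Btg2 in HC over NC was 0.97, just under 2-fold. Zfp36, which encodes the protein tristetraprolin that destabilizes cytokine mRNA, had 9.29, 10.94, 9.84 and 11.32 in NC, NC+IL6, HC and HC+IL6. It was 3.13-fold higher with IL6 in normoxia and 2.78-fold in hypoxia, and did not reach 2-fold between HC and NC or between HC+IL6 and NC+IL6. In HC+IL6 compared with NC+IL6, 1 of 16 immediate-early genes was higher (Klf10), 1 was lower (Plk2) and the median was 0.23. In NC+IL6 compared with NC, 4 of 15 were higher (Ier3, Klf2, Zfp36 and Plk2) and 0 lower, with a median of 0.39. In HC+IL6 compared with HC, 2 of 15 were higher (Ier3 and Zfp36), 1 was lower (Btg2) and the median was 0.14. Over all genes, 2.31%, 3.27% and 2.23% were called higher in these comparisons, in the order given. The shares called lower were 1.33%, 0.898% and 1.66%, and the medians were 0.01, -0.03 and -0.03.

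Of 24 measured genes known as targets of AP-1 or EGR factors, 16 were above the floor in HC or NC, with 4 higher, 0 lower and a median log2 ratio of 0.40. Over all genes, 3.22% were called higher there and 1.06% lower, with a median of 0.04. In HC+IL6 compared with NC+IL6, 2 of 18 were higher and 1 was lower, against 2.31% and 1.33% over all genes. The median was 0.33, against 0.01 over all genes. IL6 went with more calls in this list. In normoxia 7 of 18 were higher and 1 lower (median 0.71), against 3.27% and 0.898% over all genes (median -0.03). In hypoxia 6 of 18 were higher and 1 lower (median 0.73), against 2.23% and 1.66% over all genes (median -0.03). Many of these targets answer to other factors too.

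Ptgs2, the cyclooxygenase that makes prostaglandins, had log2 signals of 9.72 (NC), 12.49 (NC+IL6), 11.08 (HC) and 13.66 (HC+IL6). Both hypoxia and IL6 were accompanied by a higher signal, and HC+IL6 was 15.4-fold higher than NC. Hmox1, which degrades heme, had 8.22, 10.68, 9.37 and 11.21 in NC, NC+IL6, HC and HC+IL6, and was 5.48-fold higher with IL6 in normoxia and 2.21-fold higher in HC than NC. Plaur, the urokinase receptor, had 8.92, 10.97, 9.46 and 10.98 on these arrays, and was 4.13-fold higher with IL6 in normoxia and 2.87-fold in hypoxia. The monocyte chemokine gene Ccl2 was under the floor in NC and HC, at 5.27 and 7.12, and had 8.54 in NC+IL6 and 9.43 in HC+IL6, at least 2.53-fold and at least 4.62-fold higher with IL6. These 4 targets, named for the size of their ratios, were highest in HC+IL6. Others of the list were highest in HC, as Egr2 was, and Egr3 by its brightest probe set. Among these others, Pdgfa, a growth factor gene, had 9.17, 8.88, 10.23 and 9.91 in the same order. It was 2.09-fold higher in HC than NC and 2.04-fold higher in HC+IL6 than NC+IL6. Nfatc1, the main transcription factor of osteoclasts, had 10.70, 9.34, 11.11 and 9.33. It was 3.44-fold lower in HC+IL6 than HC, 2.56-fold lower in NC+IL6 than NC and 1.33-fold higher in HC than NC.

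**Figure D4:**
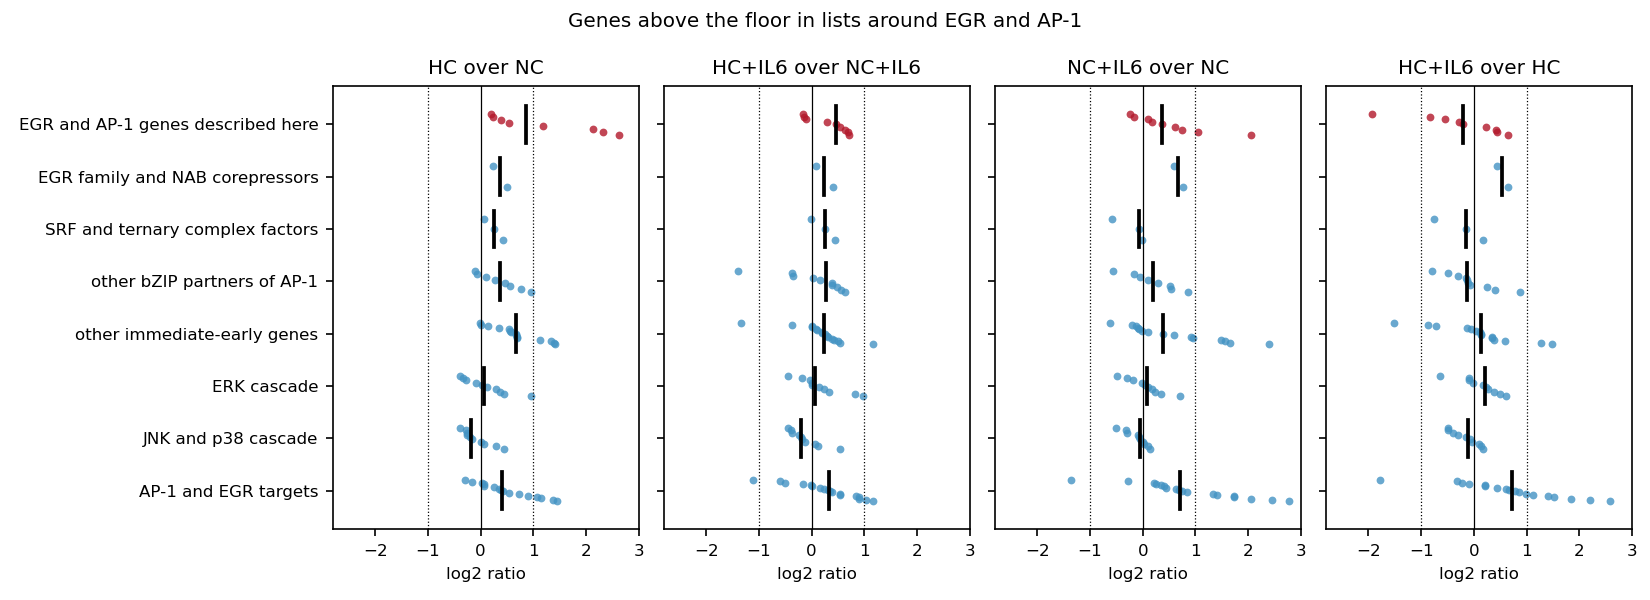
Log2 ratio (x axis) of each gene above the floor in 8 lists (y axis) and 4 comparisons of 1 array each, dimmer signals raised to the floor, with black bars at the medians and dotted lines at 2-fold. In HC over NC the medians of the EGR and AP-1 genes (0.86) and of the other immediate-early genes (0.67) lie above those of the ERK cascade (0.07) and of the JNK and p38 cascade (-0.18).

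For the members above the floor on all arrays with a range of at least 1.0, the genes with the most similar pattern were sought among 7878 genes, as the smallest Euclidean distance between log2 signals centred on their own mean over the 4 arrays. For Egr1 these were Cpt1a, which imports fatty acids into mitochondria (distance 0.59), the complement receptor gene C3ar1 (0.76) and Ddit4, a stress-induced inhibitor of mTOR (0.76). For Egr3 they were Clec7a, a receptor for fungal glucans (0.40), Mxd4, a MAX partner (0.53), and Il10ra, the IL10 receptor chain (0.64). Clec7a had log2 signals of 9.64 (NC), 8.86 (NC+IL6), 11.64 (HC) and 9.84 (HC+IL6). For Fosl2 they were Tmem35b (0.058), Chac2 (0.13) and Pold4 (0.15). The distance describes these 4 arrays and was not tested.

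Among the macrophage markers, Itgam, an integrin chain, was 3.13-fold higher in HC than NC and 3.24-fold higher in HC+IL6 than NC+IL6. Fcgr1, a receptor for IgG, was 3.31-fold higher with IL6 in normoxia and 2.37-fold in hypoxia, and Mpeg1, a pore-forming protein of phagocytes, was 2.05-fold lower in HC+IL6 than HC. The summed signal of the 10 markers ranged from 140433 in HC to 147643 in NC. Among the genes that set the floor, 4 of 63 were above it on at least 1 array (Mbp, Afp, Cela1 and Pomc). Mbp was at 10.88, 10.11, 11.20 and 10.39 in NC, NC+IL6, HC and HC+IL6. Afp, a fetal liver gene, was at 9.20, 10.33, 9.01 and 9.32 on the same arrays. The summed signal of the 4 neutrophil markers was 108 (NC), 139 (NC+IL6), 177 (HC) and 295 (HC+IL6). Apart from S100a8 in HC+IL6, these sums are made of signals under the floor. The part of this sum in the results was not tested.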

How the data were processed

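RNA of RAW264.7 cells was hybridized to 1 array for each of 4 conditions, taken from the labels. The authors deposited log2 signals of 45101 probe sets. The submitters' processing notes name MAS5 with no version, and with 2% of values cut off at either end the mean signal of every array came to 500. Symbols came from the platform annotation, with 34958 probe sets naming 1 gene, 932 several and 9211 not listed. Floors, log2 ratios and calls were computed with Python 3.11.15, numpy 2.4.6 and pandas 2.3.3, and tested on simulated data. As alternatives, arrays were rescaled by quantiles and by cyclic loess (limma 3.58.1, R 4.3.3), and the calls were repeated with a floor at the 90th percentile, no floor, an added background signal, probe sets averaged per gene and a 1.5-fold limit. The genes and lists were chosen with earlier results of these data known. All 10 genes were named, and from each list up to 4 genes called in at least 1 comparison, by size. Dusp1, Klf10, Plk2, Myc, Nab1, Nab2, Egr4, Wt1, Pdgfa, Nfatc1, S100a8, Map2k5, Spred1, Mbp, Cela1 and Pomc were named after their values were seen. Gene lists cover EGR partners, serum response factor, leucine zipper partners, immediate-early genes, kinase cascades, targets and cell type markers. Genes of these lists without a value were not analysed here.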

Additional observations from a re-analysis of the deposited data

Results flagged for a closer look

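Egr2 stood out because its response to IL6 went in opposite directions in normoxia and in hypoxia on both of its probe sets. By the brighter one, the log2 ratio was 1.46 for NC+IL6 over NC and -0.54 for HC+IL6 over HC, a difference of -2.00. By the dimmer one, it was 1.86 and -0.37, a difference of -2.23. The signal in NC was under the background floor on both, and with values raised to the floor the differences were -1.59 and -0.91. The difference was not tested, since each condition has 1 array.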

How the results depend on the processing

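For the EGR and AP-1 genes, the 13 genes named by rule from the lists and the counts of the 8 gene lists without the markers, log2 ratios or calls were recomputed under 7 alternatives, and none of these reversed the direction of a called value. The median of the EGR and AP-1 genes in HC over NC, 0.86, was 0.53 with the floor at the 90th percentile and 0.46 with no floor, which admit genes that were under the floor. For HC+IL6 and NC+IL6 the count of called genes, 0, was 1 with no floor (Fosb, lower, under the floor on both arrays) and 3 with a 1.5-fold limit. For NC+IL6 and NC the count of 2 was 1 with the background signal added, 1 with probe sets averaged and 4 with a 1.5-fold limit, and it was 3 with the floor at the 90th percentile or with no floor, where Fosl1 passed 2-fold. For HC+IL6 and HC the count of 1 was 3 with a 1.5-fold limit, and for HC+IL6 and NC the count of 3 was 5 with no floor and 5 with a 1.5-fold limit. With probe sets averaged, the log2 ratios of Egr3 were 1.08 for HC over NC and -1.05 for HC+IL6 over HC, that of Fosl2 was 0.64 for HC over NC, the difference of the hypoxia ratios of Egr3 with and without IL6 was -0.85, and the uncalled ratio of Jund for HC+IL6 over NC+IL6 was 0.30 in place of -0.12. The counts of the gene lists moved by over 1.5 times mostly with no floor, which admits genes under it. These alternatives were not run for the marker lists as wholes. Genes named after their values were seen had no ratios of their own recomputed. Those in the 8 gene lists, such as Nab2, entered only through the counts of called genes. No paired analysis was possible because each condition has 1 array and the labels carry no replicate numbers. The floor limits what can be said of Fosb, Fosl1 and Egr2 in NC.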
